A study of Mus musculus with 12 samples.

Results

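The genes described here encode the main chaperones of the cytosol and the mitochondrion, their co-chaperones and a pair of heat shock transcription factors. They were chosen as a list of 38 mouse gene symbols in 10 classes. The classes are HSP70, HSP110, HSP90, HSP90 co-chaperones, HSP40, small HSP, BAG, TRiC, mitochondrial chaperonin and heat shock factors. By Ensembl identifier 37 of the 38 were found among the 41388 genes of the deposited tables, and 36 of the 37 had enough counts to be tested. Hspa14 had no row of its own: its exons lie within a row whose gene model also holds a neighbouring gene, so it is given no value. Hspb1, which encodes HSP27, was the gene that did not pass the filter on low counts. It had 1 count in 1 Htt-72Q library, 1 count in each of 2 Htt-25Q libraries, 4 counts in 1 control vector library and 0 in the others.

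RNA was measured in 12 libraries of cortical neurons cultured from Swiss Webster mouse embryos at embryonic day 16. Lentivirus was added on day 5 in vitro and RNA was harvested on day 10. Htt-72Q neurons received mutant exon 1 of huntingtin with 72 glutamines, Htt-25Q neurons received wild-type exon 1 with 25 glutamines, and control vector neurons received a virus that the labels call control or empty vector, with 4 libraries in each group. The sources used here give neither the promoter of the vector nor the share of neurons infected, and do not say whether libraries of a group came from separate cultures, so the p-values measure the spread between these libraries, which may be technical. Each library also carries a preparation number, whose meaning the labels do not state. Libraries 1 to 4 carry 22, 24, 26 and 27_1 in the Htt-72Q and control vector groups. In the Htt-25Q group they carry 22, 24, 27_1 and 27, so comparisons with Htt-25Q are not balanced by preparation.

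Chaperones bind unfolded or partly folded proteins. HSP40 proteins, which share a J domain, deliver clients to HSP70 and start its ATP hydrolysis; HSP110 proteins and BAG proteins release the nucleotide and let the cycle go on; STIP1 hands clients from HSP70 to HSP90; and small HSPs hold aggregation-prone proteins in a form that can be refolded. The ring-shaped TRiC complex folds actin and tubulin in the cytosol, and the HSPD1 ring with its HSPE1 lid does the same work for proteins imported into mitochondria. Heat shock factor 1 switches on many of these genes under heat or proteotoxic stress by binding repeats of the letters GAA. In cells and animal models of Huntington disease, DNAJB1, DNAJB2, DNAJB6 and TRiC are known to limit the aggregation of proteins with long glutamine tracts.

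The letters that heat shock factors bind were looked for in the 250 bases before each listed start of a gene. The starts were those of RefSeq promoters of GRCm38.p6, where 31 of the 38 members were found. A 2-unit match was GAA, any 2 bases and TTC, or TTC, any 2 bases and GAA, both of which read the same on either strand. A 3-unit match had a further GAA or TTC after any 2 more bases, so that the units alternate, and so also holds 2-unit matches. A 2-unit match was present in 12 of the 31 members (38.7%) and in 14.5% of all 27025 genes with a promoter. A 3-unit match was present in 3 of the 31 members (9.68%), Dnajb6, Hspd1 and Hspe1, and in 0.511% of all genes. Hspd1 and Hspe1 lie head to head and their windows hold the same stretch, so they are not separate cases. The sequences below show the 3 HSP40 genes that rose in Htt-72Q, Hsph1, which fell, and Hspe1 as an example of a 3-unit match, with 2-unit letters in capitals, all read on the strand of the gene. Hspa1a and Hspa1b are also shown, because their promoters and much of their transcripts are near copies: 247 of 250 bases before the start are the same.
Hspa1a: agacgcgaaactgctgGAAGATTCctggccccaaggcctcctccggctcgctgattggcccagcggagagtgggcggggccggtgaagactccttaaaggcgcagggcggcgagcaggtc
Hspa1b: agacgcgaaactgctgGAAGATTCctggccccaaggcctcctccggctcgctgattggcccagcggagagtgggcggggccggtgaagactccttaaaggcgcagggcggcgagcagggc
Dnajb1: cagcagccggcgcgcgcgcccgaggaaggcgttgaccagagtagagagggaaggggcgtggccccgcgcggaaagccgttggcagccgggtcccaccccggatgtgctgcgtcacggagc
Dnajb2: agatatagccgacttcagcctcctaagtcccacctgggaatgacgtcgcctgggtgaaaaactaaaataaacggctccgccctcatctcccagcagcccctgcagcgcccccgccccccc
Dnajb4: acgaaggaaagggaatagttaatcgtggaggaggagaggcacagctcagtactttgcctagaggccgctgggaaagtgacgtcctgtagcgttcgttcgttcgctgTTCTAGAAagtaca
Hsph1 site: tagaatctTTCTCGAAggctcgag
Hspe1 site: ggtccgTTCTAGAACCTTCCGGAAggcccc

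The Hspa1a stretch lies at chr17:34972157-34972276 and the Hspa1b stretch at chr17:34959239-34959358, both on the minus strand and both ending at the last base before the RefSeq start. The Dnajb1 stretch lies at chr8:83608055-83608174 on the plus strand. The Dnajb2 stretch lies at chr1:75236286-75236405 on the plus strand, ending at the base 18 before the RefSeq start. The Dnajb4 stretch lies at chr3:152193846-152193965 on the minus strand. It precedes a RefSeq start inside the gene span given below, not the outermost start of the gene. The Hsph1 site lies at chr5:149636354-149636377 on the minus strand, in an annotated exon of Hsph1, and the Hspe1 site at chr1:55088053-55088082 on the plus strand, in an annotated exon of Hspd1. In these windows Dnajb4 and Hsph1 held 2-unit letters and Dnajb1 and Dnajb2 did not. By GENCODE M21 on GRCm38, the called genes span chr8:83608193-83612653 (Dnajb1), chr1:75236406-75245692 (Dnajb2), chr4:42949814-42959425 (Dnajb5), chr9:50751325-50756636 (Cryab) and chr3:88297116-88321767 (Cct3) on the plus strand. On the minus strand they span chr3:152178511-152210302 (Dnajb4), chr5:149614287-149636376 (Hsph1) and chr17:34956436-34959238 (Hspa1b). A match is a description of the letters and says nothing of binding.

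The libraries held 12.4 to 27.5 M counts, with 15.2 ± 3.32 M in Htt-72Q, 22.5 ± 3.90 M in Htt-25Q and 18.4 ± 4.66 M in control vector neurons (SD, n = 4 each). Mitochondrial rRNA took 13.1 ± 1.83% of counts in Htt-72Q, 10.7 ± 2.34% in Htt-25Q and 8.98 ± 3.54% in control vector neurons. The cultures expressed neuronal markers strongly, and these were lower in Htt-72Q. The summed level of 11 neuronal markers was 4884 to 5147 CPM (counts per M counts, scaled by the TMM method) in Htt-72Q libraries, 6494 to 7698 CPM in Htt-25Q libraries and 7098 to 8097 CPM in control vector libraries, and 8 of the 11 were called lower against control vector and 7 against Htt-25Q. The cultures also held glial markers. The 10 astrocyte markers summed to 2563 to 3008 CPM in Htt-72Q, 2492 to 3179 CPM in Htt-25Q and 2773 to 3269 CPM in control vector libraries, and 0 of 10 were called in any comparison. The 7 markers of neural progenitors summed to 246 to 323 CPM in Htt-72Q, with Vim called higher and Hes1 lower against Htt-25Q, where they summed to 209 to 270.5 CPM, and to 229 to 239 CPM in control vector libraries. Microglial, endothelial and fibroblast or mural markers summed to at most 25.4 CPM in each library. Of the 9 microglial markers, Aif1 alone passed the filter on low counts. It stood at 2.77 to 24.2 CPM over the 12 libraries and was not called. Tmem119 was at 0 in all Htt-25Q and control vector libraries. Of the 8 fibroblast or mural markers 3 were tested. The mural marker Rgs5 was called lower against control vector (-2.37, edgeR adjusted p = 0.00651) and against Htt-25Q (-1.80, adjusted p = 0.0315). Its means were 0.303 CPM in the Htt-72Q group, 1.11 CPM with Htt-25Q and 1.64 CPM with control vector, from 0 to 41 counts per library. Pdgfrb (-0.26 and 0.11) and Dcn (-1.07 and -0.97) were not called in these comparisons. In bulk RNA, fewer cells of a type and less RNA per cell cannot be told apart, and the part of these differences in the chaperone values was not tested.

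Levels of different genes were compared per kilobase, as the deposited RPKM. Hsp90ab1, the constitutive HSP90 of the cytosol, was the most abundant member, at 748 ± 59.6 RPKM in Htt-72Q, 682 ± 45.1 RPKM in Htt-25Q and 696 ± 59.5 RPKM in control vector neurons (SD, n = 4 each). By that level it stood above 99.9% of the genes tested in control vector neurons. On the CPM scale it held 31.6 ± 1.97% of the summed level of all 37 members in Htt-72Q, 32.2 ± 1.12% in Htt-25Q and 32.5 ± 0.761% in control vector neurons. The next members by level were Cct2 at 136 RPKM, Ahsa1 at 119, Bag1 at 116 and Cct5 at 112 RPKM, as means over the 12 libraries. Hspa1a, Hspa1b and Bag3, which heat induces, were scarce, as was the heat-inducible Hspb1, not tested, at 0.0258 RPKM over the 12 libraries. The other members listed below as heat-inducible averaged from 9.07 RPKM for Dnaja1 to 119 RPKM for Ahsa1. Among them Hsp90aa1 averaged 52.7 RPKM, Dnajb1 22.4 RPKM and Hsph1 12.6 RPKM over the 12 libraries. Hspa1b stood at 4.31 ± 1.21 RPKM in Htt-72Q, 2.36 ± 0.593 RPKM in Htt-25Q and 2.59 ± 0.516 RPKM in control vector neurons. Hspa1a stood at 1.04 ± 0.428 RPKM in Htt-72Q, 0.651 ± 0.0618 RPKM in Htt-25Q and 0.653 ± 0.207 RPKM in control vector neurons. Bag3 was the lowest tested member, at 0.368 RPKM over the 12 libraries. The plot of RPKM by class shows this span.

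**Figure D1:**
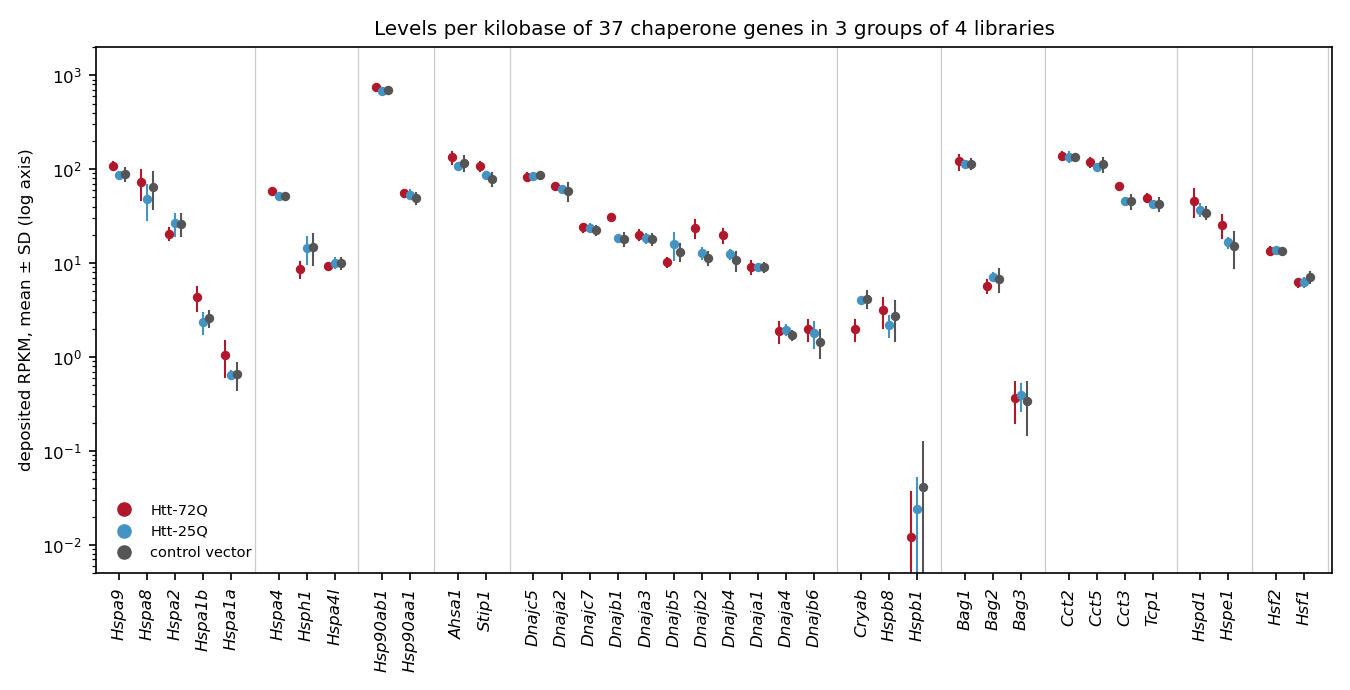
Deposited RPKM (log axis) of the 37 chaperone genes found, as mean (points) ± SD (bars) over 4 libraries each of Htt-72Q, Htt-25Q and control vector neurons; vertical lines separate the classes, in the order HSP70, HSP110, HSP90, HSP90 co-chaperones, HSP40, small HSP, BAG, TRiC, mitochondrial chaperonin and heat shock factors. Hsp90ab1 stands above all others and Hspb1, whose lower bars run off the axis, is the lowest in the 3 groups, with means of at most 0.0415 RPKM.

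In Htt-72Q neurons 4 of the 36 tested members rose against control vector and 2 fell. The 3 HSP40 genes Dnajb1, Dnajb2 and Dnajb4 and the TRiC subunit gene Cct3 rose, and Cryab, a small HSP gene, and Hsph1, an HSP110 gene, fell. These 6 are 16.7% of the members tested, and 23.2% of all 14707 genes tested were called in that comparison (9.44% higher and 13.7% lower), by an edgeR quasi-likelihood adjusted p under 0.05. At an unadjusted p under 0.05 there were 9 members, beside 35.4% of all genes. Against Htt-25Q the same 6 genes were called in the same directions, with Hspa1b higher and Dnajb5 lower besides, 8 of 36 (22.2%) against 22.5% of all genes (9.07% higher and 13.4% lower), and 8 at an unadjusted p under 0.05, beside 34.1%. The split of all called genes turns on the scaling: with library totals in place of TMM, 1931 were higher and 1702 lower against control vector, beside 1389 and 2022, and 1745 were higher and 1690 lower against Htt-25Q, beside 1334 and 1974. All-gene medians were then 0.11 and 0.10, and the members named as called kept their directions. Members were thus called no more often than genes at large in either comparison. The comparisons share the Htt-72Q libraries, so the likeness of their calls is not separate evidence. The median log2 fold change of the members was 0.08 against control vector and 0.06 against Htt-25Q, beside 0.03 and 0.03 over all genes tested. The groups did not overlap for 7 members against control vector, where 23.7% of all genes did not overlap, and for 9 members against Htt-25Q, beside 26.7% of all genes. When the fit took the preparation numbers as a block, 10 members (27.8%) were called against control vector, beside 30.5% of all genes, and 7 (19.4%) against Htt-25Q, beside 21.2%.

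**Figure D2:**
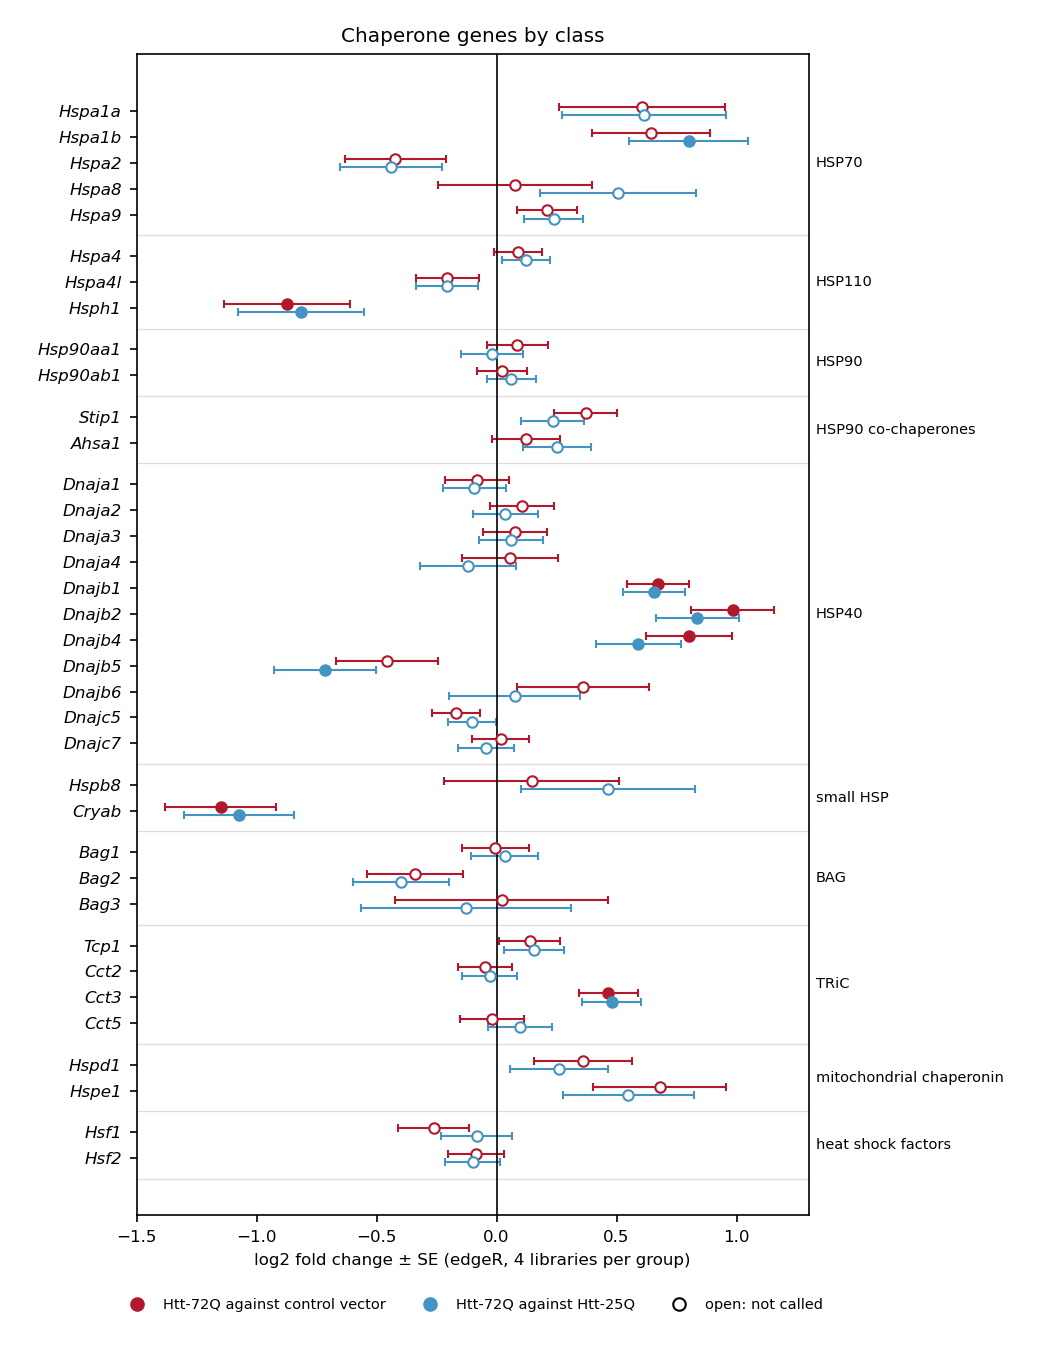
Log2 fold change ± SE (edgeR) of the 36 tested chaperone genes by class, for Htt-72Q against control vector (red) and Htt-72Q against Htt-25Q (blue); filled points are called and open points are not. The filled points at the right are Dnajb1, Dnajb2, Dnajb4, Cct3 and, against Htt-25Q, Hspa1b, and those at the left are Hsph1, Cryab and, against Htt-25Q, Dnajb5.

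HSP40, the largest class, had the most called genes. Against control vector 3 of 11 rose and 0 fell (27.3% called, beside 23.2% of all genes). Against Htt-25Q 3 rose and 1 fell (36.4%, beside 22.5%). Whether these shares differ from those of all genes was not tested. The class median of the log2 fold changes stayed near that of all genes, at 0.08 and 0.04. Dnajb2 encodes an HSP40 that is abundant in neurons and carries client proteins to the proteasome. Its levels were 78.0, 91.3, 132 and 89.1 CPM in Htt-72Q libraries 1 to 4, 44.8, 58.2, 53.7 and 62.0 CPM in Htt-25Q libraries 1 to 4 and 38.5, 50.6, 55.7 and 52.8 CPM in control vector libraries 1 to 4. The lowest Htt-72Q library was above the highest library of each other group. The log2 fold change was 0.98 ± 0.17 (SE) against control vector (edgeR adjusted p = 0.000954), a 1.98-fold difference, and 0.84 ± 0.17 against Htt-25Q (adjusted p = 0.00298).

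Dnajb1 encodes HSP40 itself, the J protein that works with HSP70 and HSP110 to take aggregates apart. It stood at 64.0, 65.2, 71.1 and 67.4 CPM in Htt-72Q, at 38.5, 40.1, 47.8 and 43.4 CPM in Htt-25Q and at 32.8, 43.9, 44.5 and 47.0 CPM in control vector libraries. The Htt-72Q libraries lay close together and above all 8 others. The log2 fold change was 0.67 ± 0.13 against control vector (edgeR adjusted p = 0.00186) and 0.66 ± 0.13 against Htt-25Q (adjusted p = 0.0022). Dnajb4, a close relative of Dnajb1, stood at 70.2, 71.2, 85.6 and 103 CPM in Htt-72Q, at 48.9, 50.5, 55.3 and 64.5 CPM in Htt-25Q and at 35.3, 40.4, 55.8 and 58.3 CPM in control vector libraries. The Htt-72Q libraries again did not overlap with the others. The log2 fold change was 0.80 ± 0.18 against control vector (edgeR adjusted p = 0.00492) and 0.59 ± 0.18 against Htt-25Q (adjusted p = 0.0279). The call against Htt-25Q ended without Htt-72Q 3 (adjusted p = 0.0561) or 4 (0.0671), or without Htt-25Q 1 (0.0761), 2 (0.0741) or 3 (0.0572), with log2 fold changes of 0.49 to 0.59.

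Dnajb5, another J protein gene related to Dnajb1, was lower in Htt-72Q. It stood at 59.7, 58.8, 50.3 and 65.2 CPM in Htt-72Q, at 69.6, 66.6, 116 and 133 CPM in Htt-25Q and at 75.8, 68.5, 72.2 and 105 CPM in control vector libraries. All 4 Htt-72Q libraries lay below the other 8, and the Htt-25Q libraries fell into a lower and a higher pair. The higher pair was Htt-25Q 3 and 4, of preparations 27_1 and 27. The highest control vector library, 4, was also of preparation 27_1. Its log2 fold change was -0.72 ± 0.21 against Htt-25Q (edgeR adjusted p = 0.0265) and -0.46 ± 0.21 against control vector (adjusted p = 0.141, not called). With the preparation block the values were -0.42 (adjusted p = 0.0446) and -0.44 (adjusted p = 0.0178), so that both were called. The call against Htt-25Q ended without Htt-25Q 3 (-0.62, adjusted p = 0.0785) or 4 (-0.53, 0.098), or without Htt-72Q 1 (0.0504), 2 (0.0613) or 3 (0.0676).

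**Figure D3:**
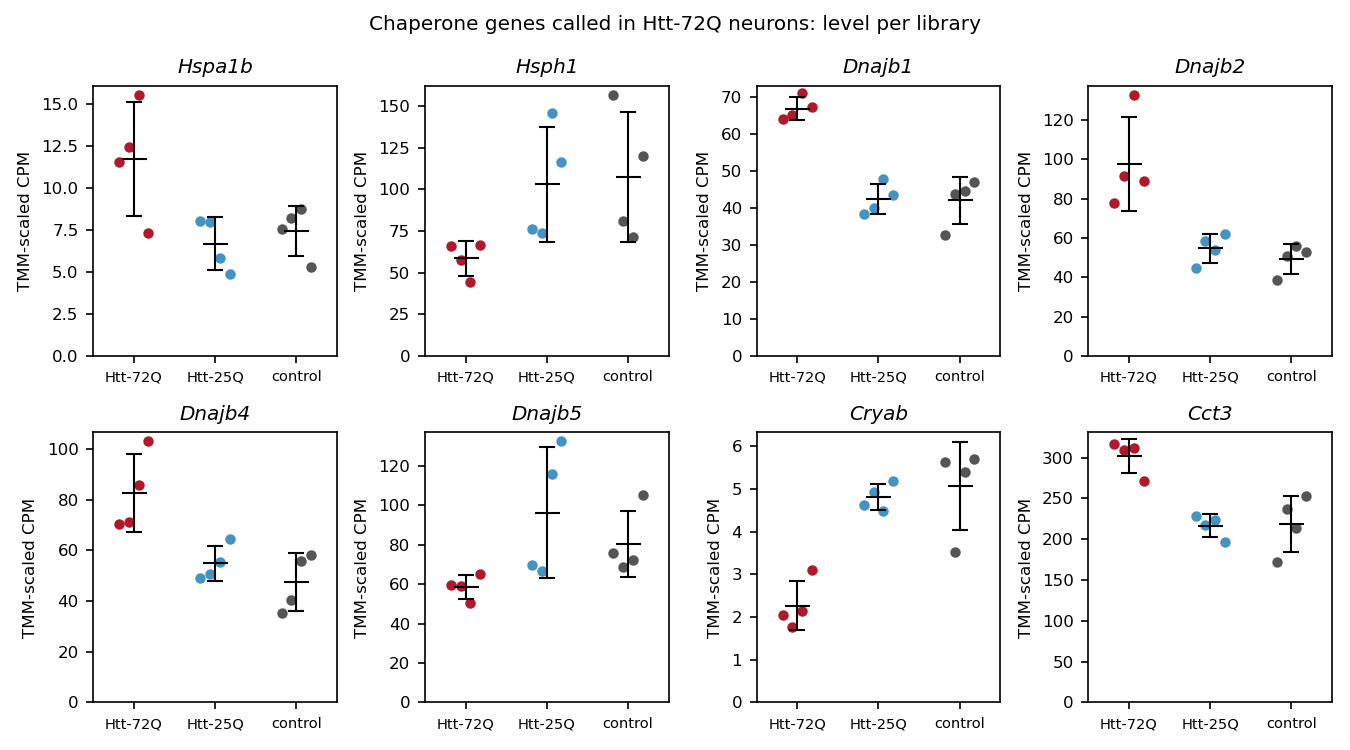
TMM-scaled CPM of the 8 called chaperone genes in each library (points), with the mean and SD over 4 libraries (bars), for Htt-72Q, Htt-25Q and control vector. The Htt-72Q points of Dnajb1, Dnajb2, Dnajb4 and Cct3 lie above all others and those of Hsph1, Dnajb5 and Cryab below all others.

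The other 7 HSP40 members were not called in either comparison. Dnajc5, the cysteine string protein of synaptic vesicles, had the highest level of the class, at 82.6 ± 7.78 RPKM in Htt-72Q, 84.4 ± 2.64 RPKM in Htt-25Q and 87.7 ± 6.15 RPKM in control vector neurons (SD, n = 4 each). The change on the log2 scale was -0.17 ± 0.10 (SE) against control vector. Dnajb6, which blocks the growth of polyglutamine aggregates, was scarce, with 8.34, 10.3, 15.2 and 10.3 CPM in Htt-72Q, 11.6, 13.9, 6.55 and 9.79 CPM in Htt-25Q and 6.30, 7.30, 12.97 and 7.71 CPM in control vector libraries. The groups overlapped, and the log2 fold change was 0.36 ± 0.28 against control vector and 0.08 ± 0.27 against Htt-25Q. The type A J proteins Dnaja1 (-0.08), Dnaja2 (0.11), Dnaja3 of the mitochondrion (0.08) and Dnaja4 (0.06), and Dnajc7 (0.02), had log2 fold changes against control vector smaller than their SEs, which ran from 0.12 to 0.20.

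In the HSP110 class, Hsph1 fell and the others were not called. Hsph1 encodes HSP105, an HSP110 protein. It stood at 65.8, 57.5, 44.4 and 66.4 CPM in Htt-72Q, at 76.4, 73.7, 146 and 116 CPM in Htt-25Q and at 156, 81.0, 71.1 and 120.2 CPM in control vector libraries. All Htt-72Q libraries lay below the other 8, while the other groups each spread over a wide range. On the log2 scale the fold change was -0.87 ± 0.26 against control vector (edgeR adjusted p = 0.0263) and -0.82 ± 0.26 against Htt-25Q (adjusted p = 0.037). With the preparation block the value against Htt-25Q was -0.57 and not called (adjusted p = 0.0651). Against control vector the call ended without Htt-72Q 2 (adjusted p = 0.059) or 3 (0.0747), or control vector 1 (0.0829) or 4 (0.0578). Against Htt-25Q it ended without any 1 of Htt-72Q 1, 2, 3 and 4 and Htt-25Q 3 and 4 (edgeR adjusted p = 0.0549 to 0.125, log2 fold changes of -0.88 to -0.60), with library totals (-0.74, adjusted p = 0.0509) and by limma voom (-0.77, adjusted p = 0.0555).

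Hspa4, the HSP110 gene with the highest level at 58.8 ± 2.87 RPKM in Htt-72Q, 51.5 ± 4.82 RPKM in Htt-25Q and 52.2 ± 3.20 RPKM in control vector neurons, had a log2 fold change of 0.09 ± 0.10 against control vector. Hspa4l had -0.20 ± 0.13.

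Of the 5 HSP70 genes, 0 were called against control vector and Hspa1b was called against Htt-25Q. Hspa1b, a stress-inducible HSP70, stood at 11.6, 12.4, 15.5 and 7.30 CPM in Htt-72Q, at 8.06, 7.96, 5.84 and 4.90 CPM in Htt-25Q and at 7.53, 8.19, 8.73 and 5.30 CPM in control vector libraries. Htt-72Q 1, 2 and 3 lay above all other libraries and Htt-72Q 4 within their range. Its log2 fold change was 0.80 ± 0.25 against Htt-25Q (edgeR adjusted p = 0.0308) and 0.64 ± 0.25 against control vector (adjusted p = 0.0746). With the preparation block the values were 0.53 (adjusted p = 0.0426) and 0.63 (adjusted p = 0.00777), so that both were called. The call against Htt-25Q ended without Htt-72Q 1 (adjusted p = 0.0567), 2 (0.0741) or 3 (0.0865), or Htt-25Q 3 (0.0822) or 4 (0.104), and against control vector Hspa1b was called without Htt-72Q 4 (0.83, adjusted p = 0.0222) and with library totals (0.73, adjusted p = 0.045). Its near copy Hspa1a stood at 3.48, 3.41, 1.20 and 3.82 CPM in Htt-72Q, 1.73, 2.05, 2.17 and 1.88 CPM in Htt-25Q and 1.10, 2.03, 2.62 and 2.17 CPM in control vector libraries. Htt-72Q 3, the highest library for Hspa1b, was the lowest Htt-72Q library for Hspa1a. Without it Hspa1a was called in both comparisons (0.86 against control vector, adjusted p = 0.0358; 0.86 against Htt-25Q, adjusted p = 0.0334), against 0.61 ± 0.34 and 0.61 ± 0.34 with it, neither called.

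Reads of the pair are hard to assign. Of the 50-base windows along the longest transcript of Hspa1a, 66.3% also occurred in transcripts of other genes, first of all Hspa1b, and 62.3% of those of Hspa1b occurred elsewhere, first of all in Hspa1a. How the authors' counting treated reads that fit several places is not given in the sources used here, so the split between this pair is uncertain. Over 40% of windows were shared also for Hspa8, Hsp90aa1, Dnaja4, Dnajb6, Hspb1, Hspd1 and Hspe1. Of the other called genes, Cryab shared 19.0%, all with Hspb2, Cct3 2.13%, Dnajb1 0.441%, and Dnajb2, Dnajb4, Dnajb5 and Hsph1 0%.

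Among the other HSP70 genes, Hspa9, the mitochondrial HSP70, had the highest level of the class, at 108 ± 10.4 RPKM in Htt-72Q, 87.2 ± 4.79 RPKM in Htt-25Q and 88.0 ± 13.9 RPKM in control vector neurons. The change on the log2 scale was 0.21 ± 0.12 against control vector and 0.24 ± 0.12 against Htt-25Q, not called. Hspa2, best known from the testis but present here at 20.6 ± 3.08 RPKM in Htt-72Q, 26.5 ± 6.98 RPKM in Htt-25Q and 26.1 ± 6.85 RPKM in control vector neurons, had -0.42 ± 0.21 against control vector and was not called.

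Hspa8, the constitutive HSP70 of the cytosol, varied more than all but 1 of the other tested members within groups, with a within-group SD of 0.55 on the log2(CPM + 0.5) scale where the median member had 0.19 and the median gene tested had 0.28. It stood at 369, 382, 210.0 and 205 CPM in Htt-72Q, at 156, 150.1, 332 and 182 CPM in Htt-25Q and at 185, 349, 173 and 401 CPM in control vector libraries. Each group held libraries near the low and near the high end. On the log2 scale the fold change was 0.08 ± 0.32 against control vector and 0.51 ± 0.32 against Htt-25Q, not called. A split of the 12 libraries, drawn from the data at the largest gap in the level of Ctnnd1, gave 2 classes of 6 that cross the groups. Class A holds Htt-72Q 3, Htt-25Q 1, 2 and 4 and control vector 1 and 3, and class B holds Htt-72Q 1, 2 and 4, Htt-25Q 3 and control vector 2 and 4. The class B libraries had 35.5 to 48.0 CPM of Gapdh, against 9.18 to 20.1 CPM for class A. For Hspa8 the ranges were 205 to 401 CPM among class B and 150.1 to 210.0 CPM among class A libraries, and Htt-72Q 4 was the class B library near the level of class A. With group in the fit the log2 difference of class B over class A was 0.91 ± 0.16 for Hspa8 (edgeR adjusted p = 0.0526, not called), and 12 of 14707 genes were called between the classes. The labels name no such classes, and what sets them was not tested. The classes were drawn from the levels in these same libraries, so this p-value and the 12 calls are not separate evidence for them. Of the windows of Hspa8, 74.8% were shared with other genes, among them Gm15459, Gm26825 and Gm8355.

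**Figure D4:**
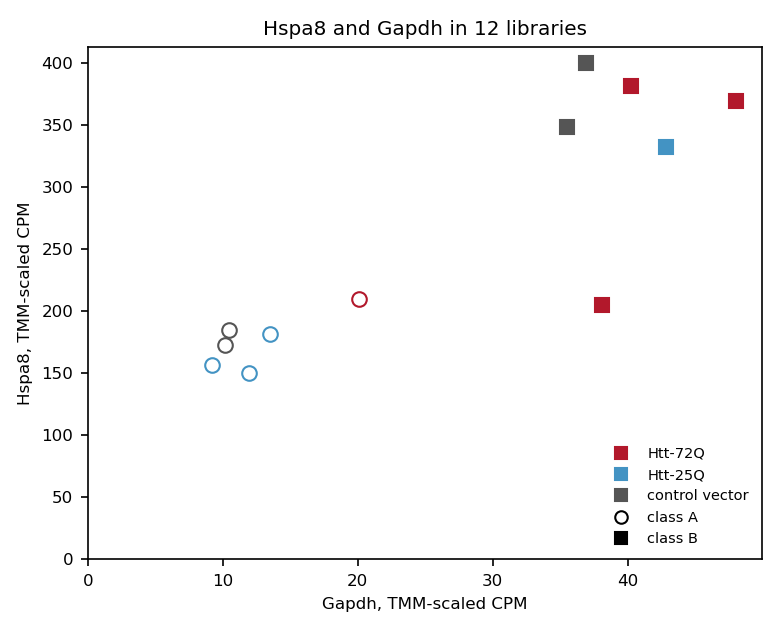
TMM-scaled CPM of Hspa8 (vertical axis) and Gapdh (horizontal axis) in the 12 libraries, coloured by group, with open circles for class A and filled squares for class B. The 5 libraries with over 300 CPM of Hspa8 are all of class B and come from the 3 groups, and Htt-72Q 4 is the class B library at 205 CPM.

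With the library class as a term in the fit, 9 of 36 members were called against control vector, beside 26.0% of all genes, and 8 (22.2%) against Htt-25Q, beside 22.7%. Hspa1b (0.72, edgeR adjusted p = 0.0337), Hspa2 (-0.53, adjusted p = 0.031) and Stip1 (0.39, adjusted p = 0.0422) were then called against control vector. Against Htt-25Q Hspa2 was called (-0.67, adjusted p = 0.0152) and Dnajb4 was not (0.58, adjusted p = 0.0523). Most Htt-72Q libraries are of class B and most Htt-25Q libraries of class A, so the term and that comparison are not independent.

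HSP90 genes and their co-chaperones were not called in any comparison. Hsp90ab1 stood at 2267, 2249, 1973 and 2183 CPM in Htt-72Q, at 1960.1, 1922, 2289 and 2136 CPM in Htt-25Q and at 1901, 2251, 2141 and 2244 CPM in control vector libraries. The groups overlapped over nearly their whole range, and the log2 fold change was 0.02 ± 0.10 against control vector and 0.06 ± 0.10 against Htt-25Q. Hsp90aa1, the inducible HSP90, had 0.09 ± 0.13 and -0.02 ± 0.13. Stip1 stood at 189, 221, 251 and 238 CPM in Htt-72Q, at 186, 202, 179 and 197 CPM in Htt-25Q and at 138, 171, 206 and 180.4 CPM in control vector libraries. Htt-72Q 2, 3 and 4 lay above the 8 libraries of the other groups, and its log2 fold change against control vector was 0.37 ± 0.13 (edgeR adjusted p = 0.0539). It was called with the preparation block (0.38, adjusted p = 0.0183), without Htt-72Q 1 (0.43, adjusted p = 0.0335) or without control vector 3 (0.45, adjusted p = 0.0281), by DESeq2 (0.36, adjusted p = 0.0464), by limma voom (0.38, adjusted p = 0.0497), and with upper-quartile scaling (0.43, adjusted p = 0.0312) or library totals (0.45, adjusted p = 0.0193). Ahsa1, which speeds up the ATPase of HSP90, was the most abundant co-chaperone of the list, at 134 ± 19.3 RPKM in Htt-72Q, 107 ± 6.90 RPKM in Htt-25Q and 116 ± 21.2 RPKM in control vector neurons, and had log2 fold changes of 0.12 ± 0.14 against control vector and 0.25 ± 0.14 against Htt-25Q.

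In the small HSP class Cryab fell and Hspb8 was not called. Cryab encodes alpha B-crystallin, which in the brain is known from oligodendrocytes and astrocytes. It stood at 2.04, 1.77, 2.15 and 3.10 CPM in Htt-72Q, at 4.63, 4.93, 4.49 and 5.18 CPM in Htt-25Q and at 5.64, 3.53, 5.40 and 5.70 CPM in control vector libraries. The 4 Htt-72Q libraries lay below the other 8. Its log2 fold change was -1.15 ± 0.23 against control vector (edgeR adjusted p = 0.00247), a 0.451-fold level, and -1.07 ± 0.23 against Htt-25Q (adjusted p = 0.00389). These are low levels, from 26 to 128 counts per library. The 11 markers of the oligodendrocyte lineage summed to 586 to 685 CPM in Htt-72Q, 553 to 679 CPM in Htt-25Q and 596 to 761 CPM in control vector libraries. Of these 11, Mobp was called lower against control vector and Mobp and Mog against Htt-25Q, and 0 of the 10 astrocyte markers were called. Their part in the fall of Cryab was not tested. Cryab overlaps Hspb2 on the opposite strand, whose mean level was 0.0164 CPM in the Htt-72Q group, 0.07 CPM with Htt-25Q and 0 with control vector. Hspb8, which works with BAG3 to send clients to autophagy, stood at 3.81, 7.30, 4.62 and 8.13 CPM in Htt-72Q, at 2.69, 4.42, 4.98 and 5.30 CPM in Htt-25Q and at 2.11, 5.08, 8.12 and 6.43 CPM in control vector libraries, with overlapping groups and a log2 fold change of 0.15 ± 0.36 against control vector.

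BAG genes were not called: 0 of 3 in each comparison. Bag1 was abundant, at 121 ± 22.0 RPKM in Htt-72Q, 113 ± 4.95 RPKM in Htt-25Q and 115 ± 15.1 RPKM in control vector neurons, with log2 fold changes of -0.0047 ± 0.14 and 0.03 ± 0.14. Bag3, the BAG protein that is induced by stress, stood at 0.657, 0.614, 0.877 and 1.55 CPM in Htt-72Q, at 0.736, 0.978, 0.898 and 1.54 CPM in Htt-25Q and at 1.67, 0.778, 0.606 and 0.562 CPM in control vector libraries, from 7 to 38 counts per library, with a log2 fold change of 0.02 ± 0.44. Bag2, which restrains the ubiquitin ligase CHIP, had -0.34 ± 0.20 against control vector and -0.40 ± 0.20 against Htt-25Q. It was called without control vector 1 (-0.53, edgeR adjusted p = 0.0205, and -0.40, adjusted p = 0.0448).

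The heat shock factor genes were not called either. Hsf1 stood at 12.8, 12.8, 10.7 and 12.3 CPM in Htt-72Q, at 11.8, 14.8, 12.4 and 12.4 CPM in Htt-25Q and at 14.3, 17.0, 14.3 and 12.7 CPM in control vector libraries, with log2 fold changes of -0.26 ± 0.15 and -0.08 ± 0.15. Hsf2 was the more abundant of them, at 13.4 ± 1.22 RPKM in Htt-72Q, 13.7 ± 0.967 RPKM in Htt-25Q and 13.5 ± 0.577 RPKM in control vector neurons. The members listed as heat-inducible were Hspa1a, Hspa1b, Hspa8, Hspb1, Hsph1, Hsp90aa1, Dnaja1, Dnajb1, Bag3, Hspd1, Hspe1, Stip1 and Ahsa1, and 12 of these 13 were tested. Against control vector Dnajb1 rose, Hsph1 fell and 10 were not called (16.7% called, beside 23.2% of all genes). The median log2 fold change was 0.24. Against Htt-25Q Dnajb1 and Hspa1b rose, Hsph1 fell and 9 were not called (25% called, beside 22.5% of all genes), with a median of 0.26. Of the 24 other tested members 3 rose and 1 fell against control vector (16.7%), with a median of 0.02. Against Htt-25Q 3 of these others rose and 2 fell (20.8%), with a median of 0.04. Cryab and Dnajb4 were counted among the others, and Hspa8, named above as constitutive, among the heat-inducible. The counts and medians depend on this sorting, which was made with earlier results of these data known, and other sortings were not tested. The near copies Hspa1a and Hspa1b, and the overlapping Hspd1 and Hspe1, were counted as separate heat-inducible genes.

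In the TRiC ring 1 of the 4 listed subunits rose. Cct3 stood at 316, 309, 312 and 271 CPM in Htt-72Q, at 229, 217, 223 and 197 CPM in Htt-25Q and at 173, 237, 214 and 253 CPM in control vector libraries. All 4 Htt-72Q libraries lay above the other 8. On the log2 scale the fold change was 0.47 ± 0.12 against control vector (edgeR adjusted p = 0.0131) and 0.48 ± 0.12 against Htt-25Q (adjusted p = 0.0116). Cct2, the subunit with the highest level, stood at 139 ± 12.97 RPKM in Htt-72Q, 135 ± 16.01 RPKM in Htt-25Q and 135 ± 10.9 RPKM in control vector neurons, with log2 fold changes of -0.05 ± 0.11 and -0.03 ± 0.11. Cct5 had -0.02 ± 0.13 against control vector and Tcp1, the alpha subunit, had 0.14 ± 0.13. Of the subunits outside the list, Cct4, Cct6a, Cct7 and Cct8 had 0.12 ± 0.13, 0.16 ± 0.12, 0.0042 ± 0.14 and 0.24 ± 0.10 against control vector, none called. The subunits assemble in equal numbers; whether the difference between Cct3 and the others is itself beyond the spread was not tested.

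The mitochondrial chaperonin genes were not called. Hspd1 stood at 84.7, 104, 182 and 106 CPM in Htt-72Q, at 103, 109, 79.1 and 106 CPM in Htt-25Q and at 80.9, 85.8, 114 and 89.1 CPM in control vector libraries, with Htt-72Q 3 far above the rest and a log2 fold change of 0.36 ± 0.20 against control vector. Hspe1, the gene of its lid, stood at 29.6, 29.6, 52.3 and 34.5 CPM in Htt-72Q, at 22.9, 21.8, 29.5 and 25.3 CPM in Htt-25Q and at 11.1, 22.1, 23.8 and 34.5 CPM in control vector libraries. Its log2 fold change against control vector was 0.68 ± 0.28 (edgeR adjusted p = 0.0913). It was called with the preparation block (0.72, adjusted p = 0.0213) and without control vector 4 (0.94, adjusted p = 0.0237). Against Htt-25Q it had 0.55 ± 0.27 and the groups did not overlap, by a small gap. The 2 genes overlap head to head on opposite strands, so reads near their starts cannot be assigned if the counting ignored strand.

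Libraries of the same preparation were compared in pairs of 1 library each. In preparations 22, 24, 26 and 27_1 Htt-72Q was above control vector in 4 of 4 pairs for Dnajb2 (log2 differences of 0.76 to 1.25), Dnajb1 (0.52 to 0.96), Dnajb4 (0.62 to 0.99), Cct3 (0.10 to 0.88) and Hspa1b (0.46 to 0.83). It was below in 4 of 4 pairs for Cryab (-1.47 to -0.88), Hsph1 (-1.25 to -0.49) and Dnajb5 (-0.69 to -0.22). Against Htt-25Q, in preparations 22, 24 and 27_1, each of these 8 genes kept its direction in 3 of 3 pairs. There Dnajb2 differed by 0.65 to 0.80 and Hsph1 by -1.14 to -0.22. The 8 genes were picked by calls on these same libraries. For all of them but Hspa1b the range of Htt-72Q did not overlap that of either other group. Their directions would thus hold under any pairing, and the pairs are not separate evidence.

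Htt-25Q against control vector gave 0 called members of 36, and 0 of all 14707 genes (0%), by edgeR. DESeq2 and limma voom also called 0 genes in that comparison. At an unadjusted p under 0.05 edgeR gave 0 members, beside 129 genes (0.877%). The groups overlapped for all 36 members, beside 0.993% of genes that did not overlap. The median log2 fold change of the members was 0.01, from -0.43 for Hspa8 to 0.28 for Dnajb6. A p that misses the threshold does not show that the 2 groups are alike: the SEs ran from 0.10 to 0.43.

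The rest of the chaperone system was read from a list of 65 further genes, of which 61 were tested. Against control vector 6 rose and 2 fell (13.1%, beside 23.2% of all genes), and against Htt-25Q also 6 rose and 2 fell (13.1%, beside 22.5%). Hspa13, a microsomal HSP70, stood at 117, 137, 189.9 and 181 CPM in Htt-72Q, at 96.03, 100.1, 83.3 and 90.7 CPM in Htt-25Q and at 68.6, 82.4, 111 and 87.3 CPM in control vector libraries, above all 8 others in each Htt-72Q library. The change on the log2 scale was 0.84 ± 0.17 against control vector (edgeR adjusted p = 0.00276) and 0.75 ± 0.17 against Htt-25Q (adjusted p = 0.00549). Grpel1, the nucleotide exchange factor of mitochondrial HSP70, stood at 123, 116, 159 and 89.7 CPM in Htt-72Q, at 70.6, 72.9, 76.4 and 75.1 CPM in Htt-25Q and at 51.1, 67.8, 77.3 and 89.5 CPM in control vector libraries. Its log2 fold change was 0.77 ± 0.18 (adjusted p = 0.00599) and 0.73 ± 0.18 (adjusted p = 0.00919). Both genes kept these calls under the 25 alternatives tried.

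Bag4, known as the silencer of death domains, and Chordc1, an HSP90 co-chaperone gene, were also called in both comparisons, but with less stable calls. Bag4 rose by 0.43 ± 0.12 against control vector (edgeR adjusted p = 0.0155) and by 0.42 ± 0.12 against Htt-25Q (adjusted p = 0.0183). Its calls ended without Htt-72Q 2 (adjusted p = 0.0625 and 0.0614), without control vector 2 against control vector (0.0705) and without Htt-25Q 3 against Htt-25Q (0.0589). Both also ended with no filter beyond 1 count (edgeR adjusted p = 0.0797 and 0.0852), and that against control vector with only the 2 groups compared (0.0518). Chordc1 had -0.59 ± 0.19 against control vector (adjusted p = 0.0317) and -0.56 ± 0.18 against Htt-25Q (adjusted p = 0.0423). Its call against control vector ended without Htt-72Q 1, 2 or 4 or control vector 2 or 3 (adjusted p = 0.0681 to 0.0866). That call also ended with upper-quartile scaling (edgeR adjusted p = 0.0539), library totals (0.053) or only the 2 groups compared (0.0522). Against Htt-25Q it ended without Htt-72Q 1, 2 or 4, Htt-25Q 1, 2 or 4 or control vector 2 (adjusted p = 0.0566 to 0.125). There it also ended with upper-quartile scaling (edgeR adjusted p = 0.0635), library totals (0.0624) or the library class as a term (0.107). Further calls were Vbp1, Dnajc9 and Clpx higher against control vector, and Pfdn1, Dnajc24 and Clpb higher and Hspb3 lower against Htt-25Q. Each of these was called in 1 comparison, and each call ended in at least 3 of the 12 fits that left out 1 library. By list, other TRiC and prefoldin genes had 1 of 13 higher in each comparison, other HSP70 and small HSP genes 1 of 6 higher in each and 1 lower against Htt-25Q, and mitochondrial chaperones and proteases 2 of 12 higher in each. Other cytosolic HSP40 genes had 1 of 12 higher in each, and other HSP90 and HSP70 co-chaperones had 1 of 18 higher and 1 lower in each.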

How the data were processed

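For each library the authors deposited read counts per gene, with CPM and RPKM that follow from those counts (the largest differences from recomputed values were 5.09e-10 and 3.20e-10). Per the submitters' processing notes, STAR 2.0.4b, Subread, featureCounts 1.45 and GRCm38 were used; neither strand nor multi-mapping settings are stated there. Counts were tested with the edgeR 4.0.16 quasi-likelihood test (R 4.3.3): TMM scaling, filterByExpr (minimum count 10), 1 fit of 12 libraries on 3 groups, 14707 genes, 9 residual degrees of freedom, two-sided Benjamini-Hochberg adjusted p under 0.05 called. In simulated data it called 20.6% to 26.5% of 1.5-fold changes over the 3 comparisons. It called 54.5% to 60.6% of 2-fold and 82.8% to 86.2% of 4-fold changes. A gene that is not called can thus still differ by such folds. The simulated sets gave 106 to 116 calls in all, where the Htt-72Q comparisons gave 3411 and 3308. With fewer calls the Benjamini-Hochberg adjustment is stricter, so the simulated shares may be lower than those of the Htt-72Q comparisons. Alternatives used DESeq2 1.42.0, limma 3.58.1 voom, other scalings, filters, blocks and leaving out libraries. Residuals of libraries that share a preparation number, which the labels do not explain, correlated above 0.1 in 10 of 10 pairs across groups (median r 0.28). That number was thus taken to pair libraries in the alternatives with a block, while the main fit held no block. With 27 and 27_1 joined, 12 of 12 pairs were above 0.1. Htt-25Q 3 and 4, of 27_1 and 27, correlated at 0.30. They were counted as separate libraries, and whether they came from separate cultures is not known. One control library carries another infection label than the other 3 and was placed by its title. No 2 libraries were duplicates (chi-square per degree of freedom at least 9.00). Named are all members, with full values for called members and the most abundant of each class, and at most 3 called genes per further list. Members, classes and lists were chosen with earlier results of these data known. Positions and transcripts are from GENCODE M21. Planned comparisons of protein sequences were not made. One gene of the further lists is not reported here.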

Additional observations from a re-analysis of the deposited data

Results flagged for a closer look

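In 108 sets of 4 libraries (36 genes in 3 groups) 4 held a library far from the other 3 by Dixon's ratio at its 95% critical value, and chance gives about 1 in 20. Hspa1a stood at 1.20 CPM in Htt-72Q 3, below 3.41 to 3.82 CPM in the other Htt-72Q libraries. Cct3 stood at 271 CPM in Htt-72Q 4, below 309 to 316 CPM in the others. Hspa9 stood at 273 CPM in control vector 1, below 371 to 387 CPM in the others. Cryab stood at 3.53 CPM in control vector 2, below 5.40 to 5.70 CPM in the others.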

How the results depend on the processing

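Dnajb1, Dnajb2 and Cryab in both comparisons and Dnajb4 against control vector kept direction and call under all 25 alternatives, and Cct3 lost its call in either comparison only at an adjusted p under 0.01. Over the 14 calls, 314 of 350 pairs of call and alternative kept the call, 36 lost it and 0 changed direction. Against control vector 6 members were called. The count was 10 with the replicate block by preparation and 11 with 27 and 27_1 joined in that block, which added Hspa2 (-0.39, adjusted p = 0.0444); by title number it was 9. These are 10, 11 and 9 of 36 members, beside 30.5%, 34.0% and 25.9% of all genes called in the same fits, against 23.2% with no block. The block by preparation gave 7 calls against Htt-25Q. It left out the only library of preparation 27 in effect, Htt-25Q 4. Against Htt-25Q 8 members were called, and 3 at an adjusted p under 0.01. Leaving out 1 library gave 5 to 7 calls against control vector, 4 to 9 against Htt-25Q (4 without Htt-25Q 3, and 5 without Htt-72Q 1, 2 or 3 or Htt-25Q 4) and 0 for Htt-25Q against control vector. With library totals only, 1931 of all genes were higher and 1702 lower against control vector, where TMM gave 1389 and 2022, and 1745 and 1690 against Htt-25Q, where TMM gave 1334 and 1974. The causes were not tested. Counts were low for Bag3, Hspa1a and Cryab, and Hspb1 could not be tested.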
